A study of Canis lupus familiaris with 32 samples.

Results

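ANKRD11 and ANKRD17, which encode large ankyrin repeat proteins, were followed in 32 primary canine osteosarcomas. The members were all probes whose gene symbol in the platform annotation is ANKRD11 or ANKRD17. They were 4 of 22176 probes and 2 of 5246 named genes on the array: the ANKRD17 probes 4242, 11489 and 16968 and the ANKRD11 probe 19240. Both genes were chosen by their difference between the survival groups on these same arrays, since the study listed them as higher in short survivors. That difference is therefore given below as a description with no test. By quantitative PCR the study also reported ANKRD17 as higher in short survivors, and that measure was not examined here.

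Ankyrin repeats are short helical units that stack into a surface for binding other proteins. ANKRD11 is a nuclear protein that binds nuclear receptor coactivators and recruits histone deacetylases, which dampens transcription driven by steroid receptors, and its heterozygous loss causes a human syndrome with skeletal and facial anomalies. ANKRD17 is a substrate of cyclin E and CDK2 with a role in entry into S phase, and together with its close relative ANKHD1 it acts as a cofactor of YAP, the transcriptional arm of the Hippo pathway.

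The dogs were untreated when the tumor was removed, and some received chemotherapy after surgery. Short survivors (SS, 16 dogs) lived less than 6 months and long survivors (LS, 16 dogs) lived 6 months or more. Each tumor was hybridized on 1 two-color array against a reference pool of RNA from all 32 tumors, so every value is a log2 ratio of tumor over pool and 0 is the level of the pool. Cy5 marked the tumor and Cy3 the pool on 16 arrays, and the dyes were swapped on the other 16, evenly between SS and LS (8 arrays each). The study divided the SS tumors by clustering into the subgroups A and B of 8 tumors each, and the genes clustered included ANKRD11 and ANKRD17. Subgroup A held 3 tumors labeled with Cy5 and 5 with Cy3, and subgroup B held 5 and 3. The dogs were patients of several breeds with tumors of different sites, so breed, age and treatment were not uniform within a group.

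All 128 member values were present. Array medians lay between -0.03 and 0.02, and the highest correlation between arrays of different tumors was 0.610. The mean values of the Cy5-labeled and of the Cy3-labeled tumors correlated at -0.658 across probes, and 64.4% of all probes were called between the orientations, so the differences of SS and of subgroup B from LS are also given within each orientation. Since the pool contains the same tumors, bone matrix genes cannot show here whether a sample is osteoblastic, only how far it lies from the pool. The mean over 11 probes of osteoblast and bone matrix genes was -0.60 ± 0.83 in subgroup B, -0.37 ± 0.93 in subgroup A and -0.23 ± 1.04 in LS (SD). In bulk tumor RNA, fewer cells of a type and less RNA per cell cannot be told apart.

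ANKRD17 was higher in SS than in LS at probe 11489, and the SS tumors with high values were those of subgroup B. In LS the lowest log2 ratio was -2.75, the median -0.89 and the highest -0.24. In subgroup A the lowest was -1.86, the median -0.43 and the highest 0.19, and in subgroup B the lowest was 0.57, the median 1.15 and the highest 1.67. All 8 tumors of subgroup B thus lay above the pool and above every other tumor, while 1 of 8 tumors of subgroup A and 0 of 16 LS tumors lay above the pool. The SS mean was 0.28 ± 0.97 and the LS mean -0.97 ± 0.55 (SD, n = 16 each), which differ by 1.24 (SE 0.28) or 2.37-fold. Of the SS tumors, 11 lay above the highest LS tumor. Subgroup B exceeded LS by 2.06 (SE 0.18, 4.17-fold) and subgroup A exceeded LS by 0.43 (SE 0.26, 1.34-fold).

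At the ANKRD17 probe 4242 the order of the tumors was similar and the range narrower. The LS tumors ran from -1.02 to 0.23 with a median of -0.26. Those of subgroup A ran from -0.89 to 0.12 with a median of -0.41, and those of subgroup B from 0.38 to 1.25 with a median of 0.64. Subgroup A overlapped LS throughout, and subgroup B lay above both. The SS mean was 0.17 ± 0.60 and the LS mean -0.31 ± 0.36, which differ by 0.49 (SE 0.18, 1.40-fold). Over all tumors subgroup B exceeded LS by 1.01 (SE 0.13, 2.01-fold), whereas subgroup A differed from LS by -0.03 (SE 0.14). Subgroup A differed from LS by -0.28 (SE 0.31, n = 3) in Cy5 and by 0.23 (SE 0.09, n = 5) in Cy3. The value over all tumors thus mixes 2 orientations with opposite signs.

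The ANKRD17 probe 16968 did not separate the tumors in this way. Its values ran from -0.47 to 0.86 with a median of -0.09 in LS, from -0.14 to 0.51 with a median of 0.25 in subgroup A, and from -0.34 to 0.64 with a median of 0.13 in subgroup B. The 3 sets overlapped, and the highest of all values was that of an LS tumor. The SS mean was 0.19 ± 0.28 and the LS mean -0.01 ± 0.34, which differ by 0.20 (SE 0.11, 1.15-fold). Over all tumors the difference from LS was 0.15 (SE 0.15) for subgroup B and 0.25 (SE 0.11) for subgroup A. For subgroup B it was 0.20 (SE 0.13) in Cy5 and 0.22 (SE 0.18) in Cy3. For subgroup A it was 0.27 (SE 0.11) in Cy5 and 0.15 (SE 0.12) in Cy3, so the order of the subgroups differed between the orientations. The probes annotated to ANKRD17 therefore disagreed on the size of the difference between subgroup B and LS, from 0.15 to 2.06 over all tumors. Which parts of the transcript they cover was not analysed here.

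ANKRD11 was measured by probe 19240 alone. In LS its lowest log2 ratio was -0.96, the median -0.54 and the highest -0.03. In subgroup A the lowest was -1.41, the median -0.49 and the highest 0.11, and in subgroup B the lowest was 0.64, the median 1.02 and the highest 1.54. As at ANKRD17 probe 11489, every tumor of subgroup B lay above the pool and above the other 24 tumors, and 0 of 16 LS tumors reached the pool. The SS mean was 0.25 ± 0.89 and the LS mean -0.46 ± 0.29, which differ by 0.72 (SE 0.24, 1.64-fold). Subgroup B exceeded LS by 1.51 (SE 0.12, 2.84-fold) and subgroup A differed from LS by -0.07 (SE 0.18).

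**Figure D1:**
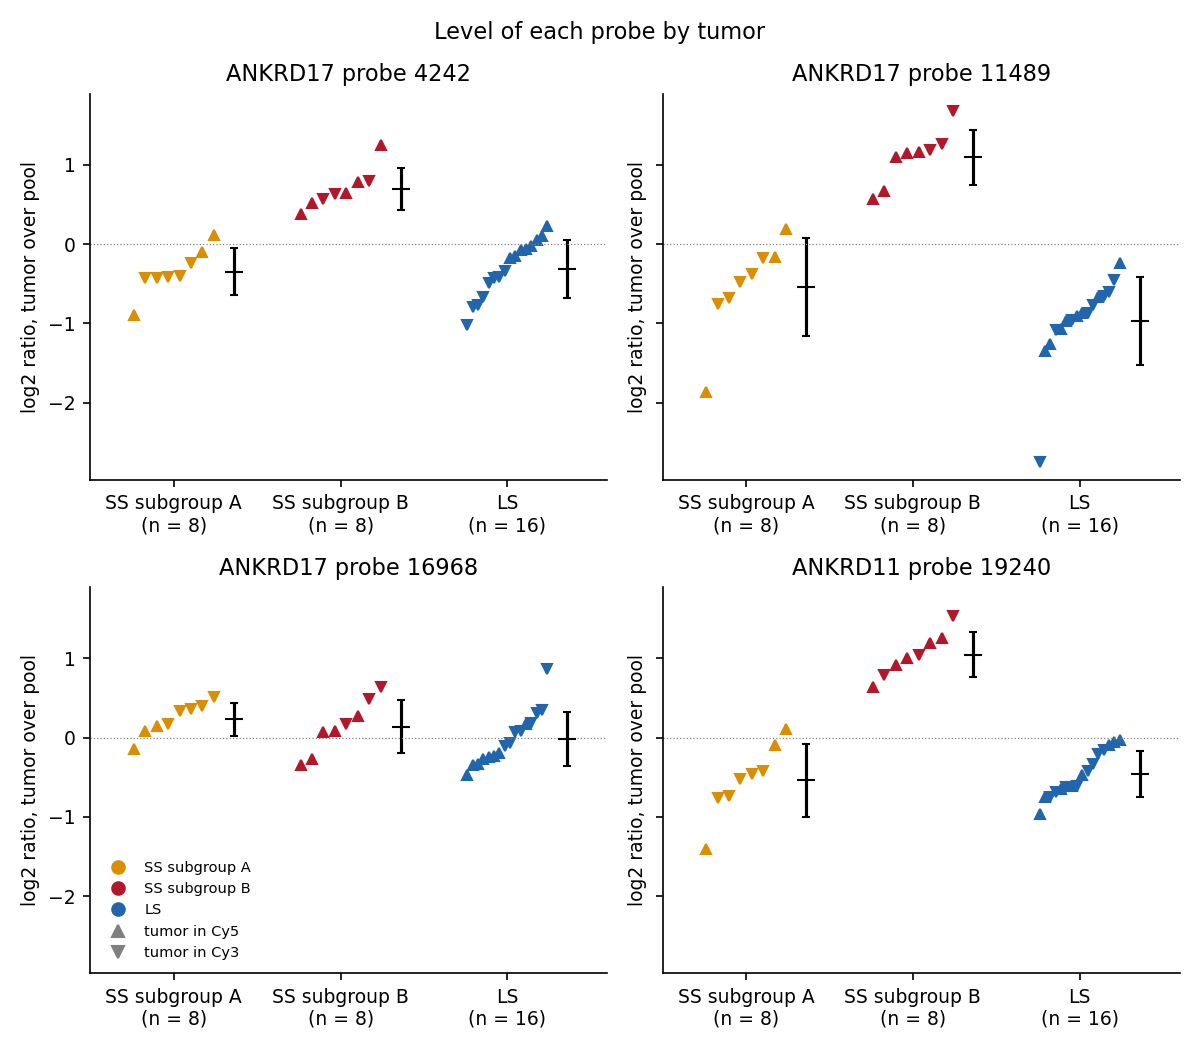
Log2 ratio of tumor over pool (y axis) at the 4 probes for SS subgroup A, SS subgroup B and LS, 1 point per tumor sorted by value, with upward triangles for tumors labeled with Cy5, downward triangles for Cy3 and black bars for mean ± SD. At ANKRD17 probes 4242 and 11489 and at ANKRD11 probe 19240 the 8 tumors of subgroup B lie above the other 24, and at probe 16968 the sets overlap.

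Only 11 of all 22176 probes (0.0496%) had every tumor of subgroup B above every other tumor, and 0 had every tumor of subgroup B below. Since the subgroups came from clustering these values, that count is a description and not a test. The 11 probes were 3 without a gene name and 8 with one, and the 8 belonged to 7 genes: ANKRD11, ANKRD17 with 2 probes, DDX46, NCOR1, RBBP6, RSF1 and SRRM1. Ranked by the gap between the lowest tumor of subgroup B and the highest of the others, ANKRD11 came at rank 2 with a gap of 0.53, ANKRD17 probe 11489 at rank 3 with 0.38 and ANKRD17 probe 4242 at rank 7 with 0.15. ANKRD17 was not alone in having probes that disagreed. NCOR1, a corepressor of nuclear receptors, separated subgroup B at 1 of 3 probes. RBBP6, an RB-binding protein that ubiquitinates other proteins, the chromatin remodeler RSF1 and the splicing factor SRRM1 did so at 1 of 2 probes each. Their separating probes differed between subgroup B and LS by 1.25 (NCOR1), 0.98 (RBBP6), 0.83 (RSF1) and 1.36 (SRRM1), and their remaining probes by -0.17 to 0.19. DDX46, an RNA helicase of the splicing machinery with 1 probe, differed by 0.75. These genes were named after their values were seen.

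The difference between SS and LS had the same sign within both orientations at all 4 probes. At ANKRD17 probe 11489 it was 1.27 with the tumor in Cy5 and 1.22 with the tumor in Cy3. It was 0.35 and 0.62 at ANKRD17 probe 4242 and 0.23 and 0.17 at probe 16968. At ANKRD11 it was 0.90 and 0.53, with 5 tumors of subgroup B among the SS arrays in Cy5 and 3 in Cy3. Subgroup B alone exceeded LS at ANKRD11 by 1.45 (SE 0.17) in Cy5 and 1.59 (SE 0.23) in Cy3. The interaction of survival group and orientation, called for 10.8% of all probes by limma, was called for 0 of the 4 probes, with adjusted p from 0.666 to 0.976 and 0 of the 4 under an unadjusted p of 0.05. Its interval was wide for the probes that moved most, from -1.09 to 1.18 at ANKRD17 probe 11489 and from -0.56 to 1.31 at ANKRD11.

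Subgroup B also stood above LS within each orientation. The 5 Cy5-labeled tumors of subgroup B, tumors 3, 4, 5, 7 and 8, read 1.16, 1.10, 1.15, 0.67 and 0.57 at ANKRD17 probe 11489, while the highest Cy5-labeled LS tumor read -0.24. The 3 Cy3-labeled ones, tumors 10, 11 and 12, read 1.67, 1.18 and 1.26, against a highest Cy3-labeled LS value of -0.45. For ANKRD11 the same 5 tumors read 1.25, 1.00, 0.92, 0.64 and 1.19 and the same 3 tumors 0.78, 1.54 and 1.03, and the highest LS values were -0.03 in Cy5 and -0.15 in Cy3. The highest value was thus that of tumor 10 at ANKRD17 probe 11489 and that of tumor 11 for ANKRD11. ANKRD17 probe 4242 had a difference between subgroup B and LS of 0.73 (SE 0.16) in Cy5 and 1.28 (SE 0.11) in Cy3.

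**Figure D2:**
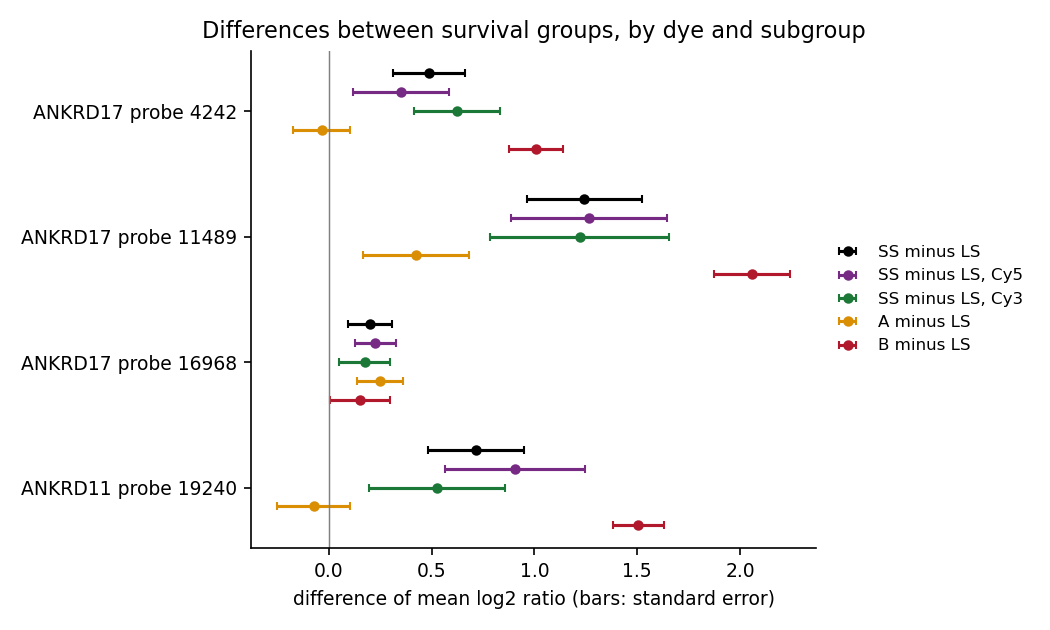
Difference of mean log2 ratio (x axis) for each probe (y axis) between SS and LS over all tumors, within the Cy5-labeled and the Cy3-labeled tumors, and between each SS subgroup and LS, with bars of 1 SE. Differences of subgroup B from LS (1.01, 2.06 and 1.51) exceed those of subgroup A (-0.03, 0.43 and -0.07) at ANKRD17 probes 4242 and 11489 and at ANKRD11, and at probe 16968 they are 0.15 and 0.25. The subgroup differences are pooled over the orientations, which the subgroups hold in unequal numbers.

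The orientation was called for 2 of the 4 probes, in opposite directions, beside 64.4% of all probes. By limma with the survival group as covariate, ANKRD17 probe 4242 was higher in the Cy5-labeled tumors by 0.46 (SE 0.15, adjusted p = 0.00951) and ANKRD17 probe 16968 was lower by -0.42 (SE 0.08, adjusted p = 2.96e-05). ANKRD17 probe 11489 (0.12, SE 0.27, adjusted p = 0.724) and ANKRD11 (0.20, SE 0.23, adjusted p = 0.454) were not called. At probe 4242 the LS tumors read -0.01 ± 0.13 in Cy5 and -0.61 ± 0.24 in Cy3 (SD, n = 8 each), while those of subgroup B read 0.71 ± 0.33 (n = 5) and 0.66 ± 0.12 (n = 3). At probe 16968, 14 of 16 Cy3-labeled and 6 of 16 Cy5-labeled tumors lay above the pool. The levels of these 2 probes against the pool thus differ with the orientation.

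Whether the probes vary together within a set of tumors was asked apart from the differences between sets. The SS tumors fell into separate sets, so no correlation pooled over them was tested, and 18 correlations were computed, each within LS, subgroup A or subgroup B after centering on the orientation. None passed after Benjamini-Hochberg adjustment over the 18, with the smallest adjusted p at 0.256 for Pearson and 0.25 for Spearman. In subgroup B (n = 8), ANKRD17 probes 4242 and 11489 correlated at r = 0.72 (exact permutation p = 0.0486) and rho = 0.88 (exact permutation p = 0.0139), and at r = 0.84 without the 2 tumors farthest from the median. ANKRD17 probe 11489 and ANKRD11 correlated there at r = -0.21 (exact permutation p = 0.619) and rho = -0.10 (exact permutation p = 0.843), and at r = -0.55 without such tumors. In subgroup A (n = 8) the same pair of probes gave r = 0.92 (exact permutation p = 0.131) and rho = 0.86 (exact permutation p = 0.0806), and r = 0.72 without 2 tumors, of which tumor 1 was lowest at both probes. In LS (n = 16) it gave r = 0.27 (permutation p = 0.259), rho = 0.45 (permutation p = 0.0795) and r = 0.49 without 2 tumors. Adjusted values for these correlations lay between 0.25 and 0.893, so ANKRD11 and ANKRD17 were not shown to vary together inside any set.

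**Figure D3:**
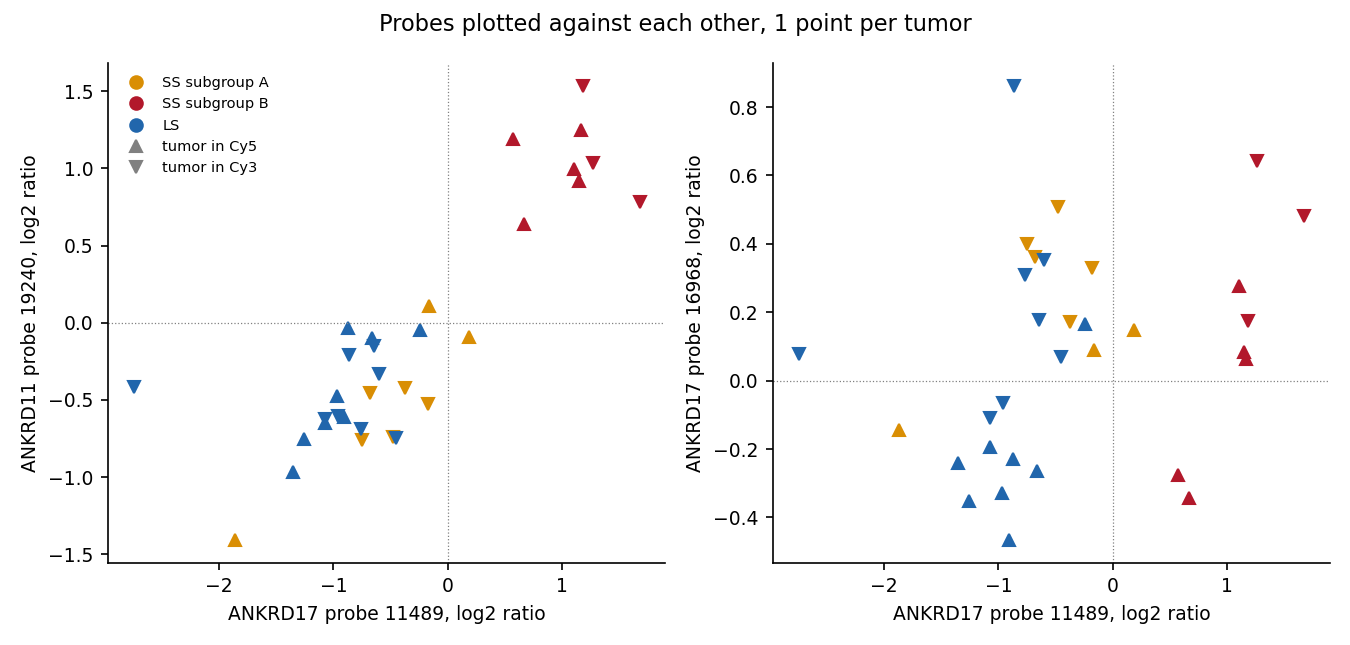
ANKRD11 probe 19240 (left) and ANKRD17 probe 16968 (right) against ANKRD17 probe 11489, all as log2 ratio of tumor over pool, 1 point per tumor, with color for subgroup A, subgroup B and LS and triangle direction for the dye of the tumor. Left, the 8 tumors of subgroup B form a set of their own in which the probes correlate at r = -0.21, and right, they lie within the range of the other tumors along probe 16968.

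The probes most like each gene across tumors were ranked by Pearson correlation over the 32 arrays, after subtraction of the mean of each combination of survival group and orientation. What the arrays share in these correlations is the reference pool and the contrast of subgroup B with subgroup A, so they pool the separate sets of SS tumors and are given as a description. The nearest of all probes to ANKRD17 probe 11489 was its own probe 4242 (r = 0.86), and the third ANKRD17 probe, 16968, came at rank 3093 (r = 0.25). The 5 nearest probes of other named genes were those of RBBP6 (r = 0.85), ANAPC5, a subunit of the anaphase-promoting complex (0.83), ANKRD11 (0.82), BAZ1B, a chromatin-associated kinase (0.79), and SRRM1 (0.79). Without subgroup B these fell to 0.64, 0.67, 0.56, 0.41 and 0.37 over 24 arrays. The nearest to ANKRD11 were SRRM1 (0.90), BAZ1B (0.89), ANKRD17 probe 4242 (0.88), NCOR1 (0.87) and RBBP6 (0.85), and without subgroup B these were 0.64, 0.48, 0.63, 0.61 and 0.70. RBBP6, BAZ1B and SRRM1 stood in both sets of 5. BAZ1B and ANAPC5 entered by 1 probe each, 4828 and 10359, which differed between subgroup B and LS by 0.96 and 0.35. The other BAZ1B probes differed by 0.68, 0.13 and 0.12, and the other ANAPC5 probes by 0.05 and -0.05.

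Tumor site was not used to choose the genes. It was not independent of the subgroups, which were no covariate in the fits below, so these share tumors with the subgroup contrast. The 6 axial or extraskeletal tumors, 2 SS and 4 LS, all lay below the pool at ANKRD17 probes 4242 and 11489 and at ANKRD11. At ANKRD11 they ran from -1.41 to -0.10 with a median of -0.74, and the 26 limb tumors from -0.96 to 1.54 with a median of -0.18. The ranges overlapped, also against the limb tumors outside subgroup B (-0.96 to 0.11). Subgroup B held 0 axial and 8 limb tumors. Most limb tumors outside subgroup B also lay below the pool. Of these 18, 1 lay above it at ANKRD17 probe 11489, 1 at ANKRD11 and 4 at ANKRD17 probe 4242. Limma, with survival group and orientation as covariates, gave axial minus limb differences of -0.57 (SE 0.28, 95% interval -1.15 to 0.00, adjusted p = 0.836) for ANKRD11, -0.42 (SE 0.35, adjusted p = 0.904) for ANKRD17 probe 11489, -0.31 (SE 0.19, adjusted p = 0.893) for probe 4242 and -0.03 (SE 0.10, adjusted p = 0.984) for probe 16968. None was called, as 0% of all probes were (1313 had an unadjusted p under 0.05, and 0 of the 4). With array weights the differences were -0.38 for ANKRD11, -0.16 for probe 11489 and -0.13 for probe 4242. Limb tumors outside subgroup B (n = 18) read -0.42 ± 0.29 at ANKRD11 and -0.80 ± 0.62 at ANKRD17 probe 11489, against -0.68 ± 0.45 and -0.89 ± 0.56 in the axial tumors (SD). The 17 forelimb tumors, the scapula included, and the 9 hindlimb tumors differed by 0.35 (SE 0.24, adjusted p = 0.996) at ANKRD11 and by -0.06 (SE 0.30, adjusted p = 0.996) at ANKRD17 probe 11489. Limma called 0% of probes there and 916 had an unadjusted p under 0.05, none of them a member.

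Histological components gave no called difference for either gene. Tumors with a fibroblastic component (n = 16) read -0.58 ± 1.05 at ANKRD17 probe 11489 and -0.25 ± 0.77 at ANKRD11, and those without (n = 16) read -0.11 ± 0.92 and 0.04 ± 0.72. The fitted differences were -0.32 (SE 0.27, adjusted p = 0.893) and -0.21 (SE 0.23, adjusted p = 0.930) by limma. For a chondroblastic component (8 tumors against 24) they were -0.16 (SE 0.32) and -0.22 (SE 0.27), with adjusted p of 1.00 by limma. The 4 telangiectatic tumors, all outside subgroup B, read -0.17, -0.24, -0.45 and -0.60 at ANKRD17 probe 11489 and 0.11, -0.05, -0.75 and -0.33 at ANKRD11 (tumors 6, 18, 21 and 22). The fitted differences were 0.34 (SE 0.42, adjusted p = 0.984) and 0.03 (SE 0.36, adjusted p = 0.999), and that of ANKRD17 probe 11489 was 0.70 without tumor 6 and 0.21 without tumor 18. The 25 high grade tumors differed from the 7 of medium or low grade by -0.35 (SE 0.34) and -0.10 (SE 0.29), with adjusted p of 0.996 by limma. In each of these 4 comparisons limma called 0% of all probes and 0 of the 4 member probes had an unadjusted p under 0.05, while 1574, 443, 1040 and 876 of all probes did. Subgroup B held 3 of the 16 fibroblastic, 2 of the 8 chondroblastic and 6 of the 25 high grade tumors. Among the 8 tumors of osteoblastic type alone, 4 were of subgroup B, and they ran from -0.96 to 1.26 at ANKRD17 probe 11489.

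**Figure D4:**
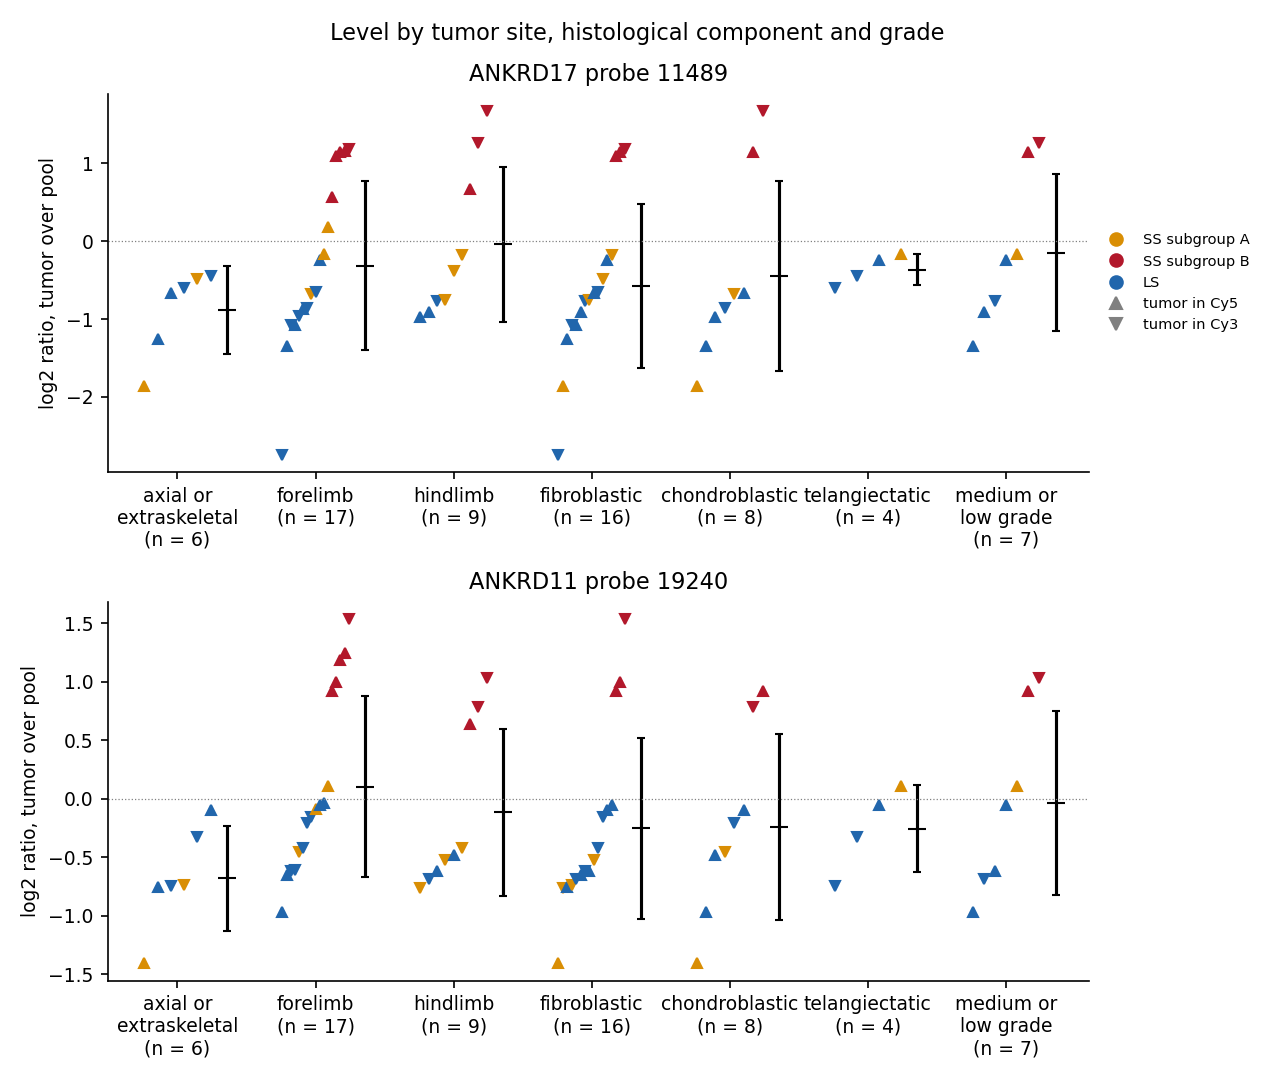
Log2 ratio of tumor over pool (y axis) at ANKRD17 probe 11489 (top) and ANKRD11 probe 19240 (bottom) by tumor site, histological component and grade, 1 point per tumor, with black bars for mean ± SD, color for subgroup and triangle direction for the dye. A tumor with several features appears in several columns, and the axial or extraskeletal and the telangiectatic columns hold 0 tumors of subgroup B.

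**Figure D5:**
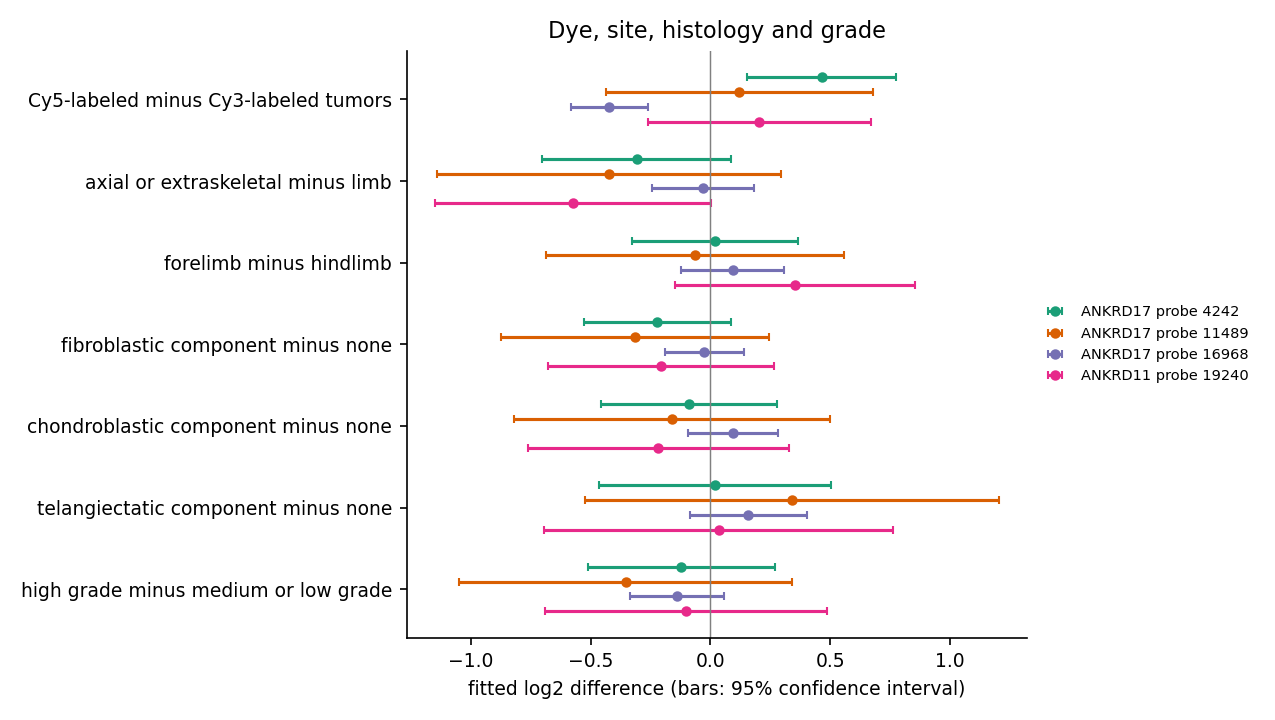
Log2 differences fitted by limma (x axis) for orientation, site, histological component and grade (y axis) at the 4 probes, with 95% confidence intervals. Only the orientation differences of ANKRD17 probes 4242 (0.46) and 16968 (-0.42) were called, and the interval of the axial difference of ANKRD11 ends at 0.00.

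Survival time within a group was not used to choose the genes. Within LS, the slopes on log10 of survival time in days were -0.39 (SE 0.45) for ANKRD17 probe 11489, 0.03 (SE 0.17) for probe 4242, -0.17 (SE 0.21) for probe 16968 and -0.20 (SE 0.24) for ANKRD11. Limma called 0% of all probes and 0 of the 4, with adjusted p from 0.902 to 0.984 at the members. An unadjusted p under 0.05 was found for 1454 of all probes and 0 of the 4. Within SS the slopes were 1.01 (SE 0.59, adjusted p = 0.588) for ANKRD17 probe 11489, 0.87 (SE 0.54, adjusted p = 0.609) for ANKRD11, 0.42 (SE 0.37, adjusted p = 0.753) for probe 4242 and -0.04 (SE 0.14, adjusted p = 0.959) for probe 16968, with 0.0451% of all probes called and 0 of the 4. The study described subgroup B as the longer-lived of the SS subgroups, so the SS slopes share tumors with the subgroup contrast above.

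Other ankyrin repeat genes were compared between SS and LS as a group. With no covariate limma called 0% of all probes between SS and LS (1581 had an unadjusted p under 0.05), and with the orientation as covariate it called 0.424%, 46 higher and 48 lower in SS, and 3137 (14.1%) had an unadjusted p under 0.05. Of 27 probes for 19 other ankyrin repeat genes 0 were called in either direction, 2 (7.41%) had an unadjusted p under 0.05, and their median difference between SS and LS was -0.02, beside -0.00058 over all probes. The largest by p was ANKHD1 probe 409, for the close relative of ANKRD17. It read 0.26 ± 0.64 in SS against -0.24 ± 0.29 in LS and so differed by 0.50 (SE 0.16, adjusted p = 0.196). Its mean was 0.70 ± 0.29 in subgroup B and -0.18 ± 0.59 in subgroup A, but the lowest tumor of subgroup B (0.31) lay below the highest of the others (0.63). The second ANKHD1 probe, 3275, differed between SS and LS by -0.11 (SE 0.06, adjusted p = 0.445). Next came ANKRD37 (0.47, SE 0.21, adjusted p = 0.313), ANKRD44 (-0.33, SE 0.17, adjusted p = 0.369) and the oxysterol-binding OSBPL1A (0.26, SE 0.13, adjusted p = 0.370).

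A general list of nuclear receptors and coregulators, not restricted to partners of ANKRD11, was represented by 16 probes for 11 genes. Limma with the orientation as covariate called 0 of them in either direction, beside 0.424% of all probes. Of the 16 probes, 2 (12.5%, beside 14.1% of all probes) had an unadjusted p under 0.05. The median difference was 0.07 with 12 of 16 above 0 (75.0%, beside 49.8% of all probes). NCOR1 led with 0.69 (SE 0.18, adjusted p = 0.114) at probe 13277, followed by the glucocorticoid receptor NR3C1 with 0.35 (SE 0.13, adjusted p = 0.248). The mediator subunit MED1 (0.19, SE 0.10, adjusted p = 0.376) and TADA3, a histone acetyltransferase adaptor that binds ANKRD11 (-0.17, SE 0.09, adjusted p = 0.376), differed less and in opposite directions. The other NCOR1 probes, 11044 and 15421, were at 0.009 (SE 0.098) and 0.070 (SE 0.083). The study also listed NCOR1 as higher in short survivors on these arrays, so its lead is a description.

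For the YAP and cyclin E pathways, in which ANKRD17 acts, limma likewise called 0 probes in either direction, beside 0.424% of all probes. It also called 0 probes of the cohesin list and of the NOD2 and RIG-I-like receptor list. Of 11 probes for 8 YAP and TEAD pathway genes, 5 (45.5%, beside 14.1% of all probes) had an unadjusted p under 0.05 and the median difference was 0.12. ANKHD1 probe 409 counts here too. The Hippo kinase STK4 was at 0.18 (SE 0.06, adjusted p = 0.212), its upstream regulator NF2 at -0.25 (SE 0.07, adjusted p = 0.160) and YAP1 itself at -0.65 (SE 0.28, adjusted p = 0.301). Of 11 probes for 7 genes of cyclin E, CDK2 and replication origins, 3 (27.3%, beside the same 14.1%) had an unadjusted p under 0.05 and the median was 0.11. ORC6, a subunit of the origin recognition complex, was at 0.42 (SE 0.17, adjusted p = 0.278), the helicase subunit MCM7 at 0.20 and 0.25 at 2 probes (adjusted p = 0.341 and 0.353), and the CDK inhibitor CDKN1A at -0.37 (SE 0.19, adjusted p = 0.367). The 7 probes for 5 genes of cohesin and its loader had a median of -0.02 and 1 unadjusted p under 0.05, that of STAG1 (-0.18, SE 0.07, adjusted p = 0.278). NOD2 and RIG-I-like receptor signaling was represented by TRAF3 alone, whose 2 probes were at -0.07 and 0.04.

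Markers of other cells were read beside the difference between the subgroups, and their part in it was not tested. Limma called 0 probes of each marker list between SS and LS with the orientation as covariate, beside 0.424% of all probes. The 12 leukocyte probes of 9 genes averaged -0.04 ± 0.66 per tumor in subgroup B (-0.53 to 1.50), -0.14 ± 0.45 in subgroup A (-0.64 to 0.78) and -0.24 ± 0.32 in LS (-0.69 to 0.55). The 31 skeletal muscle probes of 14 genes averaged -0.22 ± 0.51 in subgroup B (-0.56 to 1.01), -0.39 ± 0.07 in subgroup A (-0.53 to -0.33) and -0.11 ± 0.54 in LS (-0.61 to 1.34). The 5 cartilage probes of 2 genes averaged -0.85 ± 1.07, -1.18 ± 0.69 and -0.68 ± 1.46. In each of these 3 lists the range of subgroup B overlapped that of LS. Only 0.0496% of all single probes had subgroup B above every other tumor, so this overlap says little about the lists. The osteoblast list covered 5 genes, and 0 of the red blood cell markers had a named probe.

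Genes that neighbor ANKRD11 and ANKRD17 on the chromosome were read in the same way. In the order of genes in RefSeq's dog annotation, 7 of the 20 nearest genes of ANKRD17 were on the array with 10 probes, which differed between subgroup B and LS by a median of 0.12 (-0.43 to 0.66). For ANKRD11, 7 of 20 neighbors had 11 probes with a median of 0.08 (-0.16 to 0.16). Of these 21 probes 0 had every tumor of subgroup B above the others, beside 0.0496% of all probes, so that this count says little about the neighbors. Between SS and LS, limma with the orientation as covariate called 1 of these 21 probes, beside 0.424% of all probes. It was GC probe 18534 near ANKRD17, which was lower in SS (-0.55, SE 0.11, adjusted p = 0.0356). The second probe of this vitamin D-binding protein gene was at -0.12 (SE 0.09, adjusted p = 0.529).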

How the data were processed

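Each tumor was hybridized on 1 cDNA array with the pool in the other dye. The deposited values are log2 ratios of tumor over pool, which the authors obtained by removing flagged spots, print-tip Lowess, a log transform and switching of the arrays with swapped dyes. The base of the logarithm is not given in the sources used here and was taken as 2. Signal over background was not analysed here, and the number of arrays limits the precision.

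Survival group and orientation came from the labels, site, histology, grade and survival time from the study's table of dogs, and subgroups A and B from the steps of its survival curves set against that table. Two-sided limma fits (version 3.58.1, functions lmFit and eBayes, under R 4.3.3) covered all 22176 probes with Benjamini-Hochberg adjustment and a threshold of 0.10. Site, histology and grade had survival group and orientation as covariates. Permutation tests (100000 resamples, or exact enumeration for n = 8) used SciPy 1.17.1 in Python 3.11.15. On simulated data of 22176 probes, the axial comparison found 55% of the differences of size 0.5 and 92% of those of size 1. The noise there was independent between probes, and the differences were put into probes drawn at random. These rates were not computed for the members, whose axial differences had an SE of 0.28 at ANKRD11 and 0.35 at ANKRD17 probe 11489.

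Named are all member probes and for each gene the 5 most correlated probes of other named genes. From the 11 gene lists up to 4 probes each with the smallest p are named, but none from the lists of cell markers. The members and lists were chosen with earlier results of these data known.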

Additional observations from a re-analysis of the deposited data

Results flagged for a closer look

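Single tumors far from the rest of their group were looked for at the 4 probes in 48 sets of 4 to 9 tumors. In 6 sets a value stood out by the size of the gap to the nearest tumor. Chance alone gives such a gap in about 5% of sets, and the sets share tumors. Tumor 1, an axial tumor of subgroup A labeled with Cy5, read -1.86 at ANKRD17 probe 11489, apart from the other 7 of subgroup A (nearest -0.75) and from the other 7 Cy5-labeled SS tumors (nearest -0.17). It was also the lowest of all tumors for ANKRD11 (-1.41). Tumor 23, a Cy3-labeled LS tumor, read -2.75 at ANKRD17 probe 11489, with the nearest of its 8 tumors at -1.08. Tumor 3 read 1.25 at ANKRD17 probe 4242, with the nearest of subgroup B at 0.79. At ANKRD17 probe 16968, tumor 18 read 0.17 among the Cy5-labeled LS tumors (nearest -0.20) and tumor 26 read 0.86 among the Cy3-labeled ones (nearest 0.35).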

How the results depend on the processing

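Of 196 alternative values of the SS minus LS differences and of counts of members called, 188 kept their direction and moved by less than the spread between tumors. The direction of the deposited Cy3 arrays rests on the authors' switching of the dyes. With their sign turned, the difference was -0.14 at ANKRD17 probe 4242 and 0.023 at probe 11489, and it fell from 0.72 to 0.19 for ANKRD11 and from 0.20 to 0.026 at probe 16968. Alternatives chosen after seeing the data left out a subgroup. Without subgroup B, the differences were -0.034 at probe 4242, 0.43 at probe 11489 and -0.073 for ANKRD11, and without subgroup A 1.01, 2.06 and 1.51. Leaving out each tumor in turn gave 1.12 to 1.39 at probe 11489, 0.42 to 0.56 at probe 4242, 0.17 to 0.26 at probe 16968 and 0.63 to 0.83 for ANKRD11.

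Of 140 alternative values of single fitted probes, 18 changed sign. All of these were uncalled, and they ran from -0.17 to 0.11. Without covariates, the forelimb difference of probe 16968 was -0.053, its grade difference 0.0028, the telangiectatic differences -0.12 (probe 4242), -0.027 (probe 11489) and -0.17 (ANKRD11), and the LS slope of probe 4242 -0.17. With array weights, values were -0.031 (interaction, probe 16968), -0.071 (forelimb, probe 4242), 0.068 and 0.11 (chondroblastic, probes 4242 and 11489), -0.047 (telangiectatic, ANKRD11) and -0.00076 (LS slope, probe 4242), and scaling gave -0.0087 (forelimb, probe 4242). Leaving out telangiectatic tumors 18, 21 or 22 gave -0.081, -0.022 and -0.017 at probe 4242 and leaving out 18 or 22 gave -0.061 and -0.036 for ANKRD11, and leaving out tumor 6 gave the highest values, 0.25 and 0.16. At probe 11489 leaving out each gave 0.21 to 0.70.

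The number of members called did not change under any of these fits. The number of all probes called moved from 0 between SS and LS to 94 with the orientation as covariate and 3 with array weights. It moved from 2384 to 3965 for the interaction with array weights, and from 10 to 1, 16 and 2 for the SS slope without covariate, with array weights and scaled. With the scapula counted as axial 1 probe was called. The telangiectatic count of 0 became 15, 9 and 3 without tumors 18, 21 and 22. No paired analysis was possible because replicate numbers run over separate dogs and are not shared by the groups.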
